A study of Mus musculus with 12 samples.

Results

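The E2F and DP factors are the transcription factors that read the retinoblastoma switch of the cell cycle. The family is described here as 10 mouse genes: E2f1 to E2f8, and Tfdp1 and Tfdp2, which encode the dimer partners DP1 and DP2. They were picked by gene symbol in the platform annotation, from 19938 genes that have a probe set of their own. No measured value enters that rule, but the family was chosen with earlier results of these data known. The shares of members called below are therefore no independent evidence. E2f3 and Tfdp1 each have 2 probe sets, which gives 12 member probe sets, and all 12 were above the lower quartile of the arrays and were tested. Levels are log2 values after quantile normalisation. They can be compared between arrays for a probe set but not between probe sets.

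RNA was taken from naive CD4 T cells of WT C57BL/6 mice and of C57BL/6 mice carrying a transgene for PP2Ac, the catalytic subunit of the phosphatase PP2A. Cells of each genotype were unstimulated (0 h) or had 6 h or 24 h of stimulation in RPMI with 10% FCS. The stimulus was anti-CD3 at 0.25 ug/mL and anti-CD28 at 0.5 ug/mL, both soluble, over plate-bound goat antibody against hamster immunoglobulin. Each of the 6 groups has 2 arrays, of which 1 carries the mark Rep in its title and is called the Rep array; the other is called the unmarked array. Whether a pair comes from separate mice or cultures is not in the labels, so p-values measure only the spread within these pairs, which may be technical. Which promoter drives the transgene is not stated in the sources used here.

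In resting cells E2F and DP proteins sit on DNA as heterodimers held in check by the pocket proteins RB, p107 and p130, and p130 with E2F4 and the MuvB core forms the repressor complex DREAM. When antigen receptor and CD28 signals induce cyclin D and cyclin E kinases, pocket proteins are phosphorylated and released, and E2F1 to E2F3 can activate genes for DNA replication. E2F4 to E2F6 act mostly as repressors, and E2F7 and E2F8, which bind DNA without a DP partner, shut E2F target genes off again late in S phase.

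Several E2F genes are themselves known E2F targets, so their promoters were searched for 2 kinds of word. RefSeq promoter windows on GRCm38.p6, from 250 bases before to 50 bases after a transcript start, matched 8 of the 10 members with 12 windows; E2f4 and E2f5 were not searched. The E2F words TTTCCCGC, TTTCGCGC, TTTGCCGC and TTTGGCGC were searched on both strands, and so was the cell cycle homology region (CHR) word TTTGAA, which is bound by MuvB; no E2F word overlapped a CHR word. An E2F word stood in 5 of the 12 member windows (E2f2, E2f3, E2f7 and both starts of Tfdp1) and in 2.26% of all 32851 windows. The 2 Tfdp1 windows overlap and hold the same site. Counted by gene, 4 of the 8 searched members had an E2F word, beside 2.6% of all genes with a window. A CHR word stood in 3 of the 12 (another start of E2f2, E2f3 and E2f8) and in 17.9% of all windows. By gene it was 3 of the 8 searched members, beside 20.2% of all genes with a window. With so few windows the CHR count is no result about the members. No word of either kind was found for the searched members E2f1, E2f6 and Tfdp2, whose levels moved with stimulation too. Stretches that hold the words are shown 5′ to 3′ on each gene's strand, with the words in capitals. They come in the order E2f7 (chr10:110745219-110745278, plus strand, word 198 bases upstream of the start), E2f3 (chr13:29986065-29986124, minus strand, CHR word at 23 and E2F word at 11 bases upstream), Tfdp1 (chr8:13338665-13338724, plus strand), E2f2 (chr4:136172294-136172323, plus strand, word just after the start) and E2f8 (chr7:48881599-48881628, minus strand, CHR word 20 bases upstream of a start that lies inside the annotated gene).
E2f7: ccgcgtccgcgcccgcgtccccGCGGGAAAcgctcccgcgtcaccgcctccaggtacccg
E2f3: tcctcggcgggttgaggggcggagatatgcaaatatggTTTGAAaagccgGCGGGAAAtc
Tfdp1: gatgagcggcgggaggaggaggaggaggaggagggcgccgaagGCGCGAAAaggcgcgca
E2f2: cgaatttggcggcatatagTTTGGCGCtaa
E2f8: gagcgggttaatTTCAAAtcgggggctgga
The CHR word of E2f2 (chr4:136180751-136180756, plus strand, 31 bases upstream of the other start) is not shown. E2f3 alone among the searched members has a CHR word and an E2F word in the same window. A match is a description of these letters, and a window without one says nothing about the factor.

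The 2 arrays of a group differed by a root mean square of 0.22 to 0.27 in transgenic cells and 0.31 to 0.33 in WT cells (r = 0.992 to 0.997 over all probe sets). Of 13 CD4 T cell marker genes 10 were measured, with array means from 12.53 to 13.20; group means of Cd4 were 13.16 to 13.74 and those of Cd3e 13.70 to 13.91. Of 6 B cell marker genes 5 were measured, with array means from 9.63 to 11.15, and group means of Cd79a were 10.51 to 12.21. Since levels cannot be compared between probe sets, these values show that transcripts of the labelled cell type were present but not how pure the cells were. Ppp2ca, which encodes PP2Ac, read 13.69 to 13.90 on the 6 transgenic arrays and 13.15 to 13.42 on the 6 WT arrays. Averaged over the times it was higher in transgenic cells by 0.57 ± 0.05 (limma adjusted p = 0.00438); at the single times the differences were 0.74 ± 0.08, 0.38 ± 0.08 and 0.60 ± 0.08 at 0, 6 and 24 h, and none passed (adjusted p = 0.0551, 1 and 0.282). Its probe set does not separate the transgene from the endogenous gene. The Rep and unmarked arrays differed in myeloid RNA: all 11 neutrophil markers were measured, and their mean was 12.50, 11.82 and 11.51 on the unmarked WT arrays at 0, 6 and 24 h against 9.11, 8.77 and 8.0 on the Rep WT arrays. On the transgenic arrays it ranged from 10.26 to 12.34. Fewer cells of a type and less RNA per cell cannot be told apart in these bulk samples.

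The family answered stimulation in 4 patterns, with the same calls against 0 h in both genotypes. Early and lasting rises were seen for E2f3, E2f4, E2f6 and Tfdp1, a transient rise at 6 h for E2f5, rises at 24 h for E2f1, E2f7 and E2f8, and a drop at 6 h for Tfdp2. E2f2 passed only from 6 to 24 h in the reported fit, which leaves out the Rep mark. With the Rep mark as a block it also passed against 0 h at 24 h in both genotypes and at 6 h in WT. A probe set is called higher or lower at a limma adjusted p under 0.05, by Benjamini-Hochberg over all 23410 probe sets with a gene symbol. In WT cells at 6 h 7 of the 12 member probe sets were higher, where 12.6% of all probe sets were, and 1 was lower, where 13.9% were. In WT cells at 24 h 9 of 12 were higher (12.9% of all) and 0 lower (13.8% of all), the latter also 0 at an unadjusted p under 0.05. Transgenic cells gave 7 higher (12.5% of all) and 1 lower (12.9%) at 6 h, and 9 higher (12% of all) and 0 lower (11.8%) at 24 h; there 1 member, Tfdp2, was lower at an unadjusted p under 0.05. The median difference of the 12 member probe sets at 24 h was 1.68 in WT and 1.45 in transgenic cells, beside -0.02 and -0.01 over all probe sets. At 6 h the members' medians were 0.63 and 0.70, beside -0.01 and 0.00.
Some markers of other cell types were also called between these times, and their part in the members' values was not tested. Of the 5 measured B cell markers 2, Cd79a and Cd79b, were lower at 6 h in each genotype. Cd79a fell by 1.67 ± 0.28 in WT and fell by 1.70 ± 0.28 in transgenic cells (limma adjusted p = 0.0017 and 0.00163). At 24 h 4 of 7 dendritic cell markers and 3 of 6 NK cell markers were lower in each genotype. Over all probe sets 13.9% in WT and 12.9% in transgenic cells were lower at 6 h, and 13.8% and 11.8% at 24 h. Of 11 neutrophil markers 0 passed at either time in the limma fit, and 0 at an unadjusted p under 0.05, with medians of -0.42 and -0.75 at 6 h and -1.06 and -1.40 at 24 h in WT and transgenic cells. Cd8a, a CD8 T cell marker, had means of 7.85 at 0 h and 9.25 at 24 h in WT (1.39 ± 0.55, limma adjusted p = 0.0965). In transgenic cells Cd8a rose from 8.11 to 9.99 (1.88 ± 0.55, limma adjusted p = 0.0348). Cd8b1, the other measured CD8 marker, did not pass at 24 h in either genotype. Its means at 0 h and 24 h were 10.74 and 10.90 in WT, and 10.61 and 11.21 in transgenic cells. Of the 10 CD4 T cell markers 5 were lower and 1 higher at 6 h in each genotype. The share higher over all probe sets was 12.6% in WT and 12.5% in transgenic cells. These marker counts were taken in the reported fit and not under the alternatives.

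**Figure D1:**
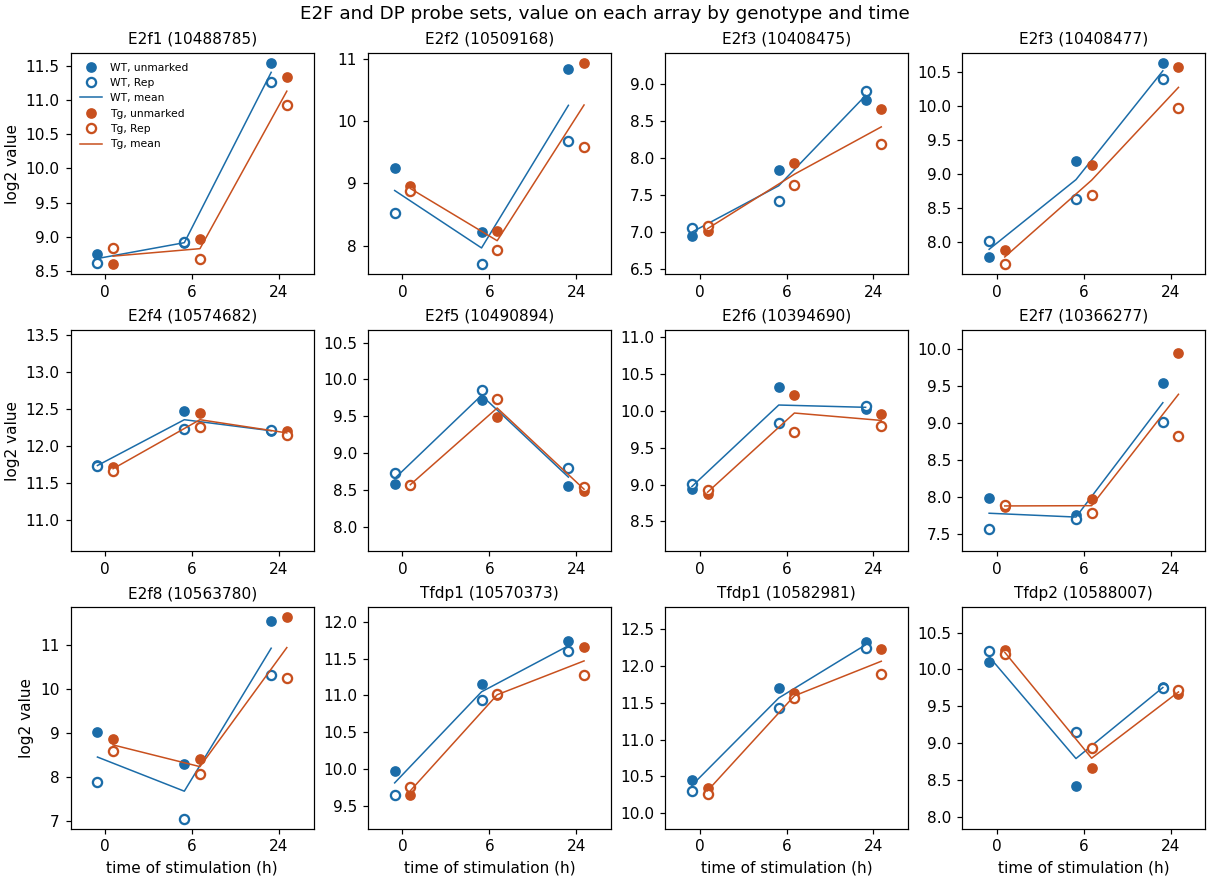
Log2 value (vertical axis) of each of the 12 member probe sets on each array at 0, 6 and 24 h, with the times evenly spaced; filled circles are unmarked arrays, open circles Rep arrays, blue WT, orange transgenic, and lines join group means of 2 arrays. E2f1 stays between 8.60 and 8.97 through 6 h and reaches 10.92 to 11.54 at 24 h, while E2f5 peaks at 6 h and Tfdp2 is lowest at 6 h.

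Among the activators, E2f1 moved late and by the most per unit of its error. E2f1 drives S phase genes and can also trigger apoptosis. In WT cells its probe set (10488785) read 8.74 unmarked and 8.62 Rep at 0 h, 8.91 and 8.92 at 6 h, and 11.54 and 11.26 at 24 h. In transgenic cells it read 8.60 and 8.83 at 0 h, 8.97 and 8.68 at 6 h, and 11.33 and 10.92 at 24 h. The 4 arrays at 24 h stood clear of the other 8, which lay within a span smaller than any distance to them. The rise from 0 to 24 h was 2.72 ± 0.16 in WT (6.58-fold, limma adjusted p = 3.02e-05) and 2.41 ± 0.16 in transgenic cells (5.31-fold, adjusted p = 8.13e-05), both with n = 2 arrays per group. At 6 h the differences were 0.23 ± 0.16 and 0.11 ± 0.16 (adjusted p = 0.369 and 0.717), with overlap of the groups in transgenic cells.

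E2f3 is the activator needed by many cell types to enter S phase, and it makes a long and a short isoform from separate promoters. Its probe sets are annotated to the same RefSeq transcripts, so the isoforms are not told apart here. Probe set 10408477 read 7.78 and 8.02 in WT cells at 0 h (unmarked, then Rep), 9.20 and 8.64 at 6 h, and 10.63 and 10.40 at 24 h. In transgenic cells it read 7.89 and 7.68, then 9.13 and 8.70, then 10.57 and 9.98. Each step in time stood apart from the one before it in both genotypes, so that the order was 0 h, 6 h, 24 h. The rises at 6 h were 1.02 ± 0.24 in WT and 1.13 ± 0.24 in transgenic cells (limma adjusted p = 0.0125 and 0.00784), and those at 24 h 2.62 ± 0.24 and 2.49 ± 0.24 (adjusted p = 0.000146 and 0.000294). The dimmer probe set 10408475 read 6.95 and 7.05 in WT at 0 h, 7.83 and 7.42 at 6 h, and 8.79 and 8.91 at 24 h. In transgenic cells it read 7.01 and 7.08, then 7.93 and 7.63, then 8.66 and 8.19. It gave the same order with smaller rises: 0.63 ± 0.18 and 0.74 ± 0.18 at 6 h (adjusted p = 0.0301 and 0.0148), and 1.85 ± 0.18 and 1.38 ± 0.18 at 24 h (adjusted p = 0.000184 and 0.000915). The 6 h calls rest on few arrays. For 10408475 they ended without either 0 h array or without the unmarked 6 h array of the same genotype (differences 0.42 to 0.77, adjusted p from 0.0594 to 0.197). In WT they also ended without the 3 Rep arrays (0.89, adjusted p = 0.0505) or with only the groups compared in the fit (adjusted p = 0.0577). For 10408477 they ended in WT without the unmarked 0 h or 6 h array (0.90 and 0.74, adjusted p = 0.0773 and 0.0954), and in transgenic cells without the unmarked 6 h or the Rep 0 h array (0.91 and 1.02, adjusted p = 0.0661 and 0.0593).

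E2f2, classed as an activator, is known from mice that lack it to restrain T cell proliferation. Its probe set (10509168) read 9.25 and 8.53 in WT cells at 0 h (unmarked, then Rep), 8.22 and 7.71 at 6 h, and 10.83 and 9.68 at 24 h. On the transgenic arrays it read 8.95 and 8.89, then 8.23 and 7.93, then 10.93 and 9.58. The order of the groups was 6 h, 0 h, 24 h in both genotypes without overlap, and the unmarked arrays at 24 h were over 1 unit above the Rep arrays. Neither difference from 0 h passed: at 6 h it was -0.92 ± 0.48 in WT and -0.84 ± 0.48 in transgenic cells (limma adjusted p = 0.213 and 0.265), and at 24 h 1.37 ± 0.48 and 1.34 ± 0.48 (adjusted p = 0.064 and 0.0752). With the Rep mark as a block, adjusted p was 0.0351 for WT at 6 h, 0.00573 for WT at 24 h and 0.00715 for transgenic cells at 24 h. The 24 h difference also passed in WT with median centring (adjusted p = 0.0449), without the Rep 24 h array (1.94, adjusted p = 0.0319) or without either transgenic 24 h array (adjusted p = 0.0301). In transgenic cells it passed without the Rep 24 h array (2.01, adjusted p = 0.0192), without either WT 24 h array (adjusted p = 0.0494) or without the 3 Rep WT arrays (adjusted p = 0.0461), and the 6 h difference passed with only the groups compared in the fit (adjusted p = 0.00415). Within the unmarked arrays the 24 h differences were 1.58 and 1.98, and within the Rep arrays 1.15 and 0.70. From 6 to 24 h E2f2 rose by 2.29 ± 0.48 in WT and 2.18 ± 0.48 in transgenic cells (limma adjusted p = 0.0141 and 0.0162). That call ended without the unmarked 24 h array or the Rep 6 h array (1.71 and 2.03 in WT, adjusted p = 0.0965 and 0.0831; 1.50 and 2.03 in transgenic cells, adjusted p = 0.107 and 0.103), in transgenic cells without the unmarked 6 h array (2.33, adjusted p = 0.0551), and in WT with only the groups compared in the fit (adjusted p = 0.0675).

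**Figure D2:**
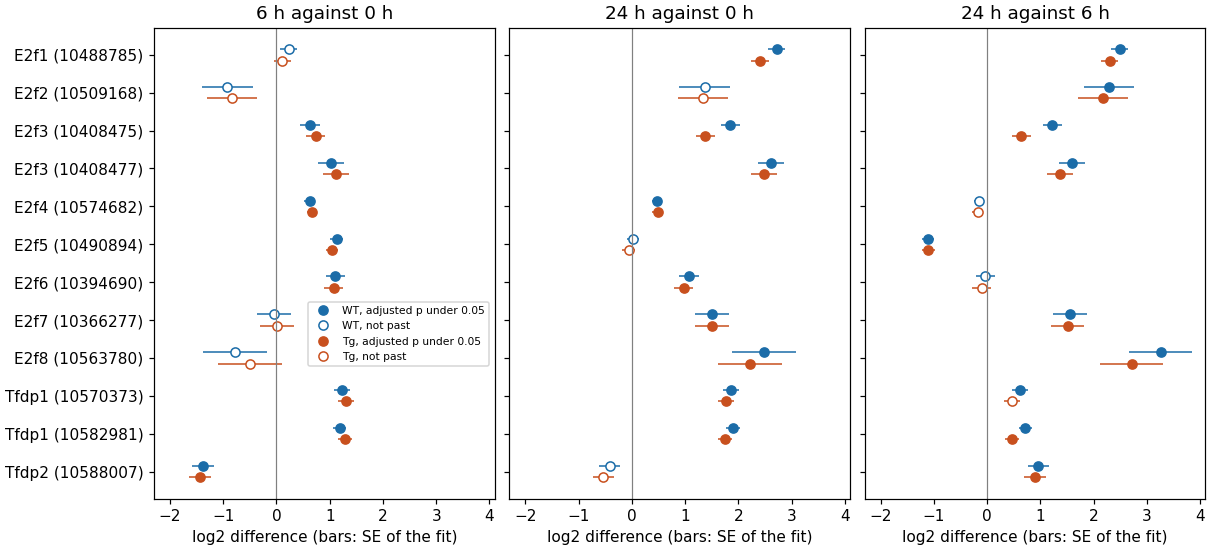
Log2 difference between times (horizontal axis, bars ± SE of the limma fit) for the 12 member probe sets in WT (blue) and transgenic (orange) cells, in 3 panels; filled circles have an adjusted p under 0.05 and open circles do not. E2f1 sits near 0 at 6 h and at 2.72 and 2.41 at 24 h, E2f5 only departs from 0 at 6 h against 0 h and 24 h against 6 h, and the widest bars belong to E2f2 and E2f8.

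The repressors E2f4 and E2f6 were higher at both stimulated times, and E2f5 only at 6 h. E2f4, the main partner of p130 and p107 in resting cells, read 11.74 and 11.73 in WT at 0 h, 12.48 and 12.23 at 6 h, and 12.20 and 12.21 at 24 h (probe set 10574682, unmarked, then Rep). The transgenic values were 11.72 and 11.66, then 12.45 and 12.26, then 12.20 and 12.15. The 0 h arrays were the lowest in both genotypes, and the 6 h and 24 h levels differed by less than their test could resolve (-0.15 ± 0.10 and -0.18 ± 0.10, limma adjusted p = 0.397 and 0.307). The rises were 0.62 ± 0.10 and 0.66 ± 0.10 at 6 h (adjusted p = 0.00149 and 0.00108), and 0.47 ± 0.10 and 0.49 ± 0.10 at 24 h (adjusted p = 0.00722 and 0.00733). The 24 h call ended in transgenic cells without the unmarked 24 h or the Rep 0 h array (0.46 each, adjusted p = 0.0526 and 0.0534), and in WT without the 3 Rep arrays (0.46, adjusted p = 0.0873).

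E2f5, which also pairs with p130, read 8.58 and 8.73 in WT at 0 h, 9.72 and 9.85 at 6 h, and 8.55 and 8.80 at 24 h (probe set 10490894, unmarked, then Rep). Transgenic cells gave 8.57 and 8.57, then 9.49 and 9.74, then 8.48 and 8.54. The 4 arrays at 6 h were the highest, and at 24 h the WT arrays overlapped those at 0 h while the transgenic arrays lay just below theirs. E2f5 rose at 6 h by 1.13 ± 0.12 in WT (2.19-fold, limma adjusted p = 0.000141) and 1.04 ± 0.12 in transgenic cells (2.06-fold, adjusted p = 0.000223). It fell by 1.11 ± 0.12 and 1.10 ± 0.12 from 6 to 24 h (adjusted p = 0.000873 and 0.000835), which left 0.02 ± 0.12 and -0.06 ± 0.12 against 0 h (adjusted p = 0.933 and 0.789).

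E2f6 lacks the domain that binds pocket proteins and represses as part of the Polycomb complex PRC1.6. It read 8.94 and 9.01 in WT at 0 h, 10.32 and 9.84 at 6 h, and 10.03 and 10.07 at 24 h (probe set 10394690, unmarked, then Rep). Among transgenic arrays it read 8.87 and 8.92, then 10.22 and 9.72, then 9.95 and 9.79. All stimulated arrays were above all 0 h arrays, and the 2 stimulated times overlapped. The rises were 1.11 ± 0.18 and 1.07 ± 0.18 at 6 h (limma adjusted p = 0.00164 and 0.00199), and 1.07 ± 0.18 and 0.97 ± 0.18 at 24 h (adjusted p = 0.00222 and 0.00453).

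E2f7 and E2f8, the atypical repressors, were not higher at 6 h and were higher at 24 h. E2f8 read 9.01 and 7.89 in WT at 0 h, 8.29 and 7.05 at 6 h, and 11.55 and 10.31 at 24 h (probe set 10563780, unmarked, then Rep). On the transgenic arrays it read 8.85 and 8.60, then 8.39 and 8.07, then 11.63 and 10.26. The 24 h arrays were the highest of each genotype, and the unmarked WT arrays were above the Rep WT arrays by 1.12, 1.25 and 1.24 at the 3 times. E2f8 rose by 2.48 ± 0.60 in WT (limma adjusted p = 0.0137) and 2.22 ± 0.60 in transgenic cells (limma adjusted p = 0.0256) from 0 to 24 h, while its 6 h differences were -0.78 ± 0.60 and -0.49 ± 0.60 (adjusted p = 0.421 and 0.646). E2f7 read 7.98 and 7.57 in WT at 0 h, 7.75 and 7.70 at 6 h, and 9.54 and 9.01 at 24 h (probe set 10366277). The transgenic values were 7.86 and 7.89, then 7.97 and 7.78, then 9.95 and 8.83. E2f7 rose by 1.50 ± 0.32 and 1.51 ± 0.32 from 0 to 24 h (adjusted p = 0.00734 and 0.0082), with 6 h differences of -0.05 ± 0.32 and 0.00 ± 0.32 (adjusted p = 0.937 and 0.996).
The WT calls ended without the unmarked 24 h array (E2f7 1.24, adjusted p = 0.0512; E2f8 1.86, adjusted p = 0.0899) and without the Rep 0 h array (E2f7 1.29, adjusted p = 0.0565; E2f8 1.92, adjusted p = 0.0991), and that of E2f7 also without the 3 Rep arrays (1.55, adjusted p = 0.0737). In transgenic cells E2f8 no longer passed without the unmarked 24 h array (1.53, adjusted p = 0.184), without either 0 h array (2.35 and 2.09, adjusted p = 0.0845 and 0.125), or with trended and robust moderation (adjusted p = 0.0588).

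The DP partners went opposite ways at 6 h. Tfdp1, which encodes the dimer partner DP1, read 10.45 and 10.31 in WT at 0 h, 11.70 and 11.43 at 6 h, and 12.32 and 12.25 at 24 h (probe set 10582981, unmarked, then Rep). Transgenic cells gave 10.35 and 10.26, then 11.63 and 11.56, then 12.23 and 11.89. The 3 times stood apart without overlap in both genotypes. Its rises were 1.18 ± 0.13 and 1.29 ± 0.13 at 6 h (limma adjusted p = 0.00018 and 0.000123), and 1.91 ± 0.13 and 1.76 ± 0.13 at 24 h (adjusted p = 5.27e-05 and 0.000123). The other Tfdp1 probe set, 10570373, rose by 1.24 ± 0.15 and 1.30 ± 0.15 at 6 h (adjusted p = 0.000319 and 0.00025) and by 1.86 ± 0.15 and 1.76 ± 0.15 at 24 h (adjusted p = 9.14e-05 and 0.000179). On single arrays it read 9.65 to 9.98 at 0 h, 10.94 to 11.16 at 6 h and 11.27 to 11.74 at 24 h. The genome also holds a Tfdp1 pseudogene, and signal shared with it was not tested.
Tfdp2, which encodes the partner DP2, read 10.09 and 10.25 in WT at 0 h, 8.42 and 9.16 at 6 h, and 9.76 and 9.75 at 24 h (probe set 10588007). Among transgenic arrays it read 10.26 and 10.21, then 8.66 and 8.93, then 9.66 and 9.72. The order was 6 h, 24 h, 0 h in both genotypes without overlap. At 6 h Tfdp2 fell by 1.38 ± 0.20 in WT (2.61-fold lower, adjusted p = 0.000814) and by 1.44 ± 0.20 in transgenic cells (2.71-fold lower, adjusted p = 0.000681). At 24 h it was at -0.42 ± 0.20 and -0.54 ± 0.20 against 0 h (adjusted p = 0.169 and 0.0869); with the Rep mark as a block the transgenic value passed (adjusted p = 0.0455), and with only the groups compared in the fit both did (adjusted p = 0.0479 and 0.0122). It passed in WT without either 6 h WT array (adjusted p = 0.0206), and in transgenic cells without either 6 h WT array (adjusted p = 0.00777) or without the 3 Rep WT arrays (adjusted p = 0.0159).

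Between 6 and 24 h 9 of the 12 member probe sets were higher in WT cells (7.49% of all probe sets) and E2f5 was lower (5.86% of all). In transgenic cells 8 were higher (7.89% of all) and again E2f5 was lower (6.42% of all). E2f1 rose by 2.49 ± 0.16 in WT and 2.30 ± 0.16 in transgenic cells (limma adjusted p = 0.000221 and 0.000293), and E2f8 by 3.26 ± 0.60 and 2.71 ± 0.60 (adjusted p = 0.00843 and 0.0169). E2f7 rose by 1.55 ± 0.32 and 1.51 ± 0.32 (adjusted p = 0.0132 and 0.0138), and Tfdp2 by 0.96 ± 0.20 and 0.90 ± 0.20 (adjusted p = 0.0138 and 0.0173). E2f3 rose by 1.595 ± 0.24 and 1.36 ± 0.24 on 10408477 (adjusted p = 0.00388 and 0.00694), and by 1.22 ± 0.18 and 0.64 ± 0.18 on 10408475 (adjusted p = 0.00338 and 0.0452). Tfdp1 rose further by 0.72 ± 0.13 and 0.47 ± 0.13 on 10582981 (adjusted p = 0.00775 and 0.0417), and by 0.62 ± 0.15 and 0.46 ± 0.15 on 10570373, where the transgenic value did not pass (adjusted p = 0.0261 and 0.0775, and 0.0338 for the latter with the Rep mark as a block).
Both transgenic calls near the threshold ended under many alternatives. That of E2f3 10408475 ended with all rows of the table tested (adjusted p = 0.0506), with only the groups compared in the fit (0.0994) and without the 3 Rep WT arrays (0.0553). It also ended without any 1 array at 0 h, either WT array at 24 h, either transgenic array at 6 h or the unmarked transgenic array at 24 h (adjusted p from 0.058 to 0.287). The call of Tfdp1 10582981 ended on leaving out any 1 of the same arrays (adjusted p from 0.0545 to 0.271), with the values as deposited (0.0652), with median centring (0.106), with only the groups compared in the fit (0.0966) and without the 3 Rep WT arrays (0.0557).
The counts for this interval also depended on single arrays. In WT the 10 calls became 4 without the unmarked 24 h array, 5 without the Rep 6 h array, 6 without the 3 Rep arrays and 5 with only the groups compared in the fit. In transgenic cells the 9 calls became 4 without the unmarked 6 h array, 2 without the Rep 6 h array and 2 without the unmarked 24 h array. E2f1 and E2f5 passed in both genotypes under every one of the alternatives run.

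No member passed the test between the genotypes at any time. Of the 12 probe sets 0 passed for transgenic against WT cells at 0 h, 6 h or 24 h, where 0.00854% of all probe sets did in each case, and 0 passed averaged over the times, where 0.0256% did. The genotype difference in the response from 0 to 6 h, 0 to 24 h and 6 to 24 h also gave 0 members, and 0% of all probe sets; at an unadjusted p under 0.05 there were 0, 0 and 1 members (E2f3), beside 420, 625 and 488 of all probe sets. Leaving out any array, or any other alternative run, gave 0 members as well. At an unadjusted p under 0.05 there were 0 members at 0 h, at 6 h and averaged over the times, and 1 at 24 h, beside 834, 610, 1484 and 997 of all probe sets.
That 1 was E2f3 on 10408475 at 24 h, with 8.66 and 8.19 on the transgenic arrays and 8.79 and 8.91 on the WT arrays. The groups did not overlap, but at 24 h neither did those of E2f5, E2f6, Tfdp1 10582981 and Tfdp2, the last at a difference of -0.06. With 2 arrays per group, lack of overlap therefore does not single out E2f3. The E2f3 difference was -0.43 ± 0.18 (95% interval -0.84 to -0.02, limma adjusted p = 1). It was -0.13 between the unmarked arrays and -0.72 between the Rep arrays. Between the same Rep arrays the neutrophil markers were higher in transgenic cells by a median of 2.36 and the monocyte markers by 1.71, against -0.67 and -0.20 between the unmarked arrays, and their part in the difference was not tested. The second E2f3 probe set differed by -0.24 ± 0.24 with overlap. At 24 h 9 of the 12 differences were negative, with a median of -0.17 beside -0.01 over all probe sets, and they ran from -0.43 (E2f3) to 0.11 (E2f7). At 6 h the highest was E2f8 at 0.56 ± 0.60, which was 0.10 between the unmarked and 1.02 between the Rep arrays, where neutrophil markers differed by a median of 2.12 and monocyte markers by 1.59. How small a difference could be seen varied with the member: the 95% interval at 1 time reached 0.23 to either side for E2f4 and 1.35 for E2f8. A 2-fold difference therefore lay outside the 24 h interval of E2f1 (-0.64 to 0.09) but inside that of E2f8 (-1.34 to 1.37).

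**Figure D3:**
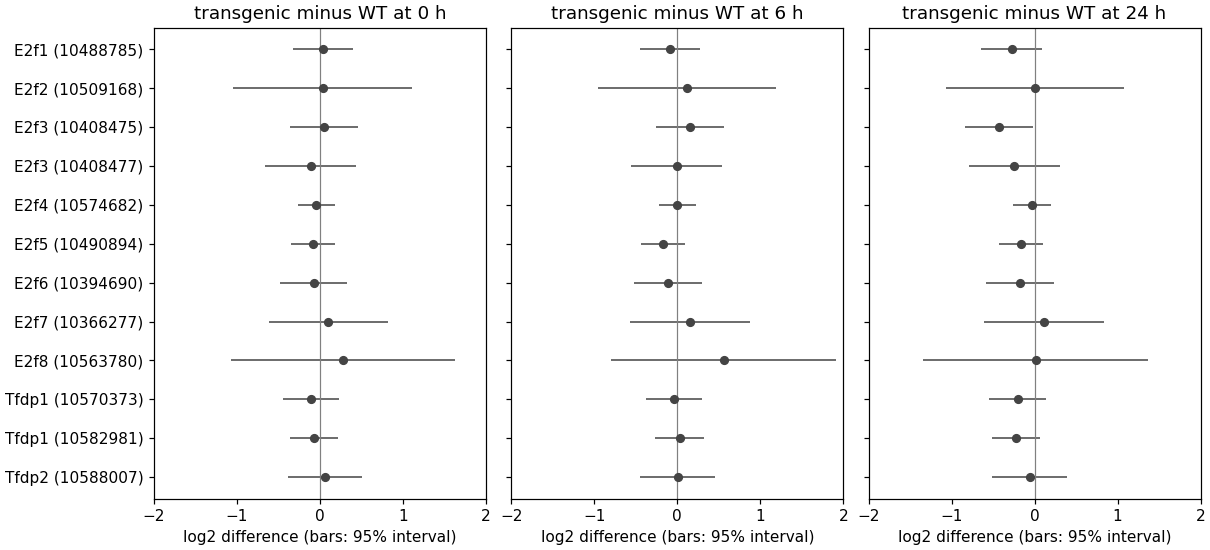
Transgenic minus WT log2 difference (horizontal axis, bars 95% interval of the limma fit, n = 2 arrays per group) of the 12 member probe sets at 0, 6 and 24 h. All intervals include 0 except that of E2f3 10408475 at 24 h, -0.84 to -0.02, and those of E2f2 and E2f8 are the widest.

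Upstream of the E2Fs, transcripts of the pocket proteins fell at 6 h. Of 11 genes for pocket proteins, the MuvB core and its MYB and FOXM1 partners, 4 were lower, where 13.9% of all probe sets were in WT and 12.9% in transgenic cells, and 0 higher at 6 h in each genotype (medians -0.28 in WT and -0.31 in transgenic cells). Rbl2, which encodes p130, fell by 1.45 ± 0.10 in WT (limma adjusted p = 2.18e-05) and by 1.33 ± 0.10 in transgenic cells (limma adjusted p = 3.09e-05). Rb1, which encodes RB, fell by 1.06 ± 0.11 and 1.08 ± 0.11 (adjusted p = 0.000125 and 0.000116), and Rbl1 (p107) and Lin54 of MuvB were also lower. At 24 h Rb1 and Rbl2 were still lower, by 0.54 ± 0.11 and 0.83 ± 0.10 in WT, while Mybl2, the MYB factor that joins MuvB, was higher by 2.44 ± 0.30 in WT and 2.51 ± 0.30 in transgenic cells (limma adjusted p = 0.000529 and 0.000646).
Of 14 measured G1 cyclin, kinase and inhibitor genes, 4 were higher and 3 lower at 6 h in each genotype, and 7 higher and 1 lower at 24 h. Over all probe sets 12.6% were higher and 13.9% lower at 6 h in WT, and 12.9% and 13.8% at 24 h, so the counts lower are not far from the share over all probe sets. Ccnd2, which encodes cyclin D2, was higher at 6 h by 1.48 ± 0.10 in WT and 1.51 ± 0.10 in transgenic cells, and Cdkn1b, which encodes the kinase inhibitor p27, was lower by 1.50 ± 0.15 and 1.44 ± 0.15. These lists were written with earlier results of the data known, so their direction is no independent evidence. Among the pocket and MuvB genes, the count lower at 6 h became 2 in transgenic cells without the Rep 0 h array, and 1 was higher there with only the groups compared in the fit. At 24 h the 3 lower in WT became 1 without the 3 Rep arrays, and the 2 lower in transgenic cells became 1 without the unmarked 0 h array. The 1 inhibitor lower at 24 h in transgenic cells became 2 genes with the Rep mark as a block.

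Downstream, the G1/S target genes of the activators rose at 24 h. Of 39 measured targets 37 were higher and 0 lower at 24 h in WT (median 2.11) and likewise 37 and 0 in transgenic cells (median 1.92), where 12.9% and 12% of all probe sets were higher. The 0 lower became 1 in WT without either transgenic 24 h array, and 1 in transgenic cells without their unmarked 24 h array. At 6 h it was 5 higher and 5 lower in WT (median 0.22), beside 12.6% and 13.9% of all probe sets, and 7 and 4 in transgenic cells (median 0.19), beside 12.5% and 12.9%; these shares are near those over all probe sets and are no result about the targets. Orc1, of the origin recognition complex, rose by 3.86 ± 0.23 in both genotypes at 24 h, from 0 h means of 5.75 in WT and 5.49 in transgenic cells that lie below the lower quartile of 5.81, and the replicative helicase gene Mcm5 by 1.88 ± 0.11 in WT and 1.84 ± 0.11 in transgenic cells. Genes called at 6 h included Ung, a uracil glycosylase, higher at 6 h by 1.44 ± 0.19 in WT, and Dck, deoxycytidine kinase, lower by 1.64 ± 0.18. The 2 targets that did not pass at 24 h were Cdt1 and Dck, named here because of their values. Promoter windows were found for 34 of the 42 listed targets, measured or not. An E2F word stood in 36.6% of their 41 windows and a CHR word in 12.2%. By gene these were 44.1% and 14.7%. For 19 of the 23 listed G2/M genes, with 19 windows, they were 5.26% and 73.7%. The 6 h counts in WT became 2 higher and 1 lower without the 3 Rep arrays, 3 higher without the unmarked 6 h or the Rep 0 h array, and 2 lower without any 1 of the 0 h or 6 h arrays. In transgenic cells they became 3 higher without the unmarked 0 h or 6 h array, 2 lower without the Rep 0 h array and 1 lower without the Rep 6 h array.

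The G2/M genes, whose mitotic products act later in the cycle, had positive differences at 24 h for 22 of 22 measured genes in both genotypes, and fewer passed. In WT 11 of the 22 were higher (median 2.06), where 12.9% of all probe sets were. In transgenic cells 7 were higher (median 1.77), where 12% of all were. In each genotype 0 were lower, beside 13.8% and 11.8% of all probe sets. At 6 h 0 passed in either direction in the limma fit, and 0 at an unadjusted p under 0.05, and the medians were -0.31 and -0.42. Over all probe sets 12.6% were higher and 13.9% lower at 6 h in WT, and 12.5% and 12.9% in transgenic cells. Top2a, topoisomerase II alpha, rose by 2.79 ± 0.51 in WT (limma adjusted p = 0.00344) and 2.31 ± 0.51 in transgenic cells (limma adjusted p = 0.0103), and the mitotic kinase gene Cdk1 by 2.84 ± 0.54 and 2.26 ± 0.54. These counts moved with the model and the arrays. With the Rep mark as a block they were 18 in WT and 15 in transgenic cells, and with trended and robust moderation 7 and 4. In WT they were 5 without the 3 Rep arrays, 2 without the unmarked 24 h or the Rep 0 h array, 7 without the unmarked 0 h array, and 18 without the Rep 24 h array or without either transgenic 24 h array. In transgenic cells they were 20 without the Rep 24 h array, 0 without the unmarked 24 h or the Rep 0 h array, 1 without the unmarked 0 h array and 4 with only the groups compared in the fit, which also gave 13 lower at 6 h.
Of the 9 genes of the E2F6 complex PRC1.6, 3 were higher at 6 h in each genotype (Pcgf6, L3mbtl2 and Max). Over all probe sets 12.6% were higher there in WT and 12.5% in transgenic cells. At 24 h 4 were higher and 2 lower in WT, beside 12.9% and 13.8% of all probe sets. In transgenic cells it was 3 higher and 2 lower, beside 12% and 11.8%. The counts lower are not far from these shares and are no result about the complex. Cbx3 rose at 24 h by 0.72 ± 0.10 in WT and 0.63 ± 0.10 in transgenic cells. Of the 4 measured E2F1 apoptosis targets 0 passed against 0 h in the limma fit. Over all probe sets 11.8% to 13.9% passed in each direction in these comparisons, so 0 of 4 is no result about the targets. At an unadjusted p under 0.05 there were 0 at 6 h, and 1 in WT and 2 in transgenic cells at 24 h, all lower. In each of these lists 0 genes passed between the genotypes at any time, where 0.00854% of all probe sets did at each time. At an unadjusted p under 0.05 there were 2 G1/S targets, lower in transgenic cells at 24 h, and 1 G1 regulator, higher at 0 h. Of all 23410 probe sets 997 were under it at 24 h and 834 at 0 h, so these list counts are no result about the lists. For the G1/S targets at 24 h 38 of 39 transgenic minus WT differences were negative, with a median of -0.14, beside -0.01 over all probe sets. The median of the targets was 0.03 between the unmarked and -0.31 between the Rep arrays. Those are the Rep arrays between which neutrophil and monocyte markers differed by medians of 2.36 and 1.71. The G2/M genes leaned the other way at 0 h, with 21 of 22 differences positive and a median of 0.26, beside -0.02 over all probe sets. The G2/M median was -0.04 between the unmarked and 0.62 between the Rep arrays, where neutrophil markers differed by a median of 2.43. At 24 h 8 of the 22 G2/M differences were positive, with a median of -0.03. The part of other cells in these differences was not tested.

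**Figure D4:**
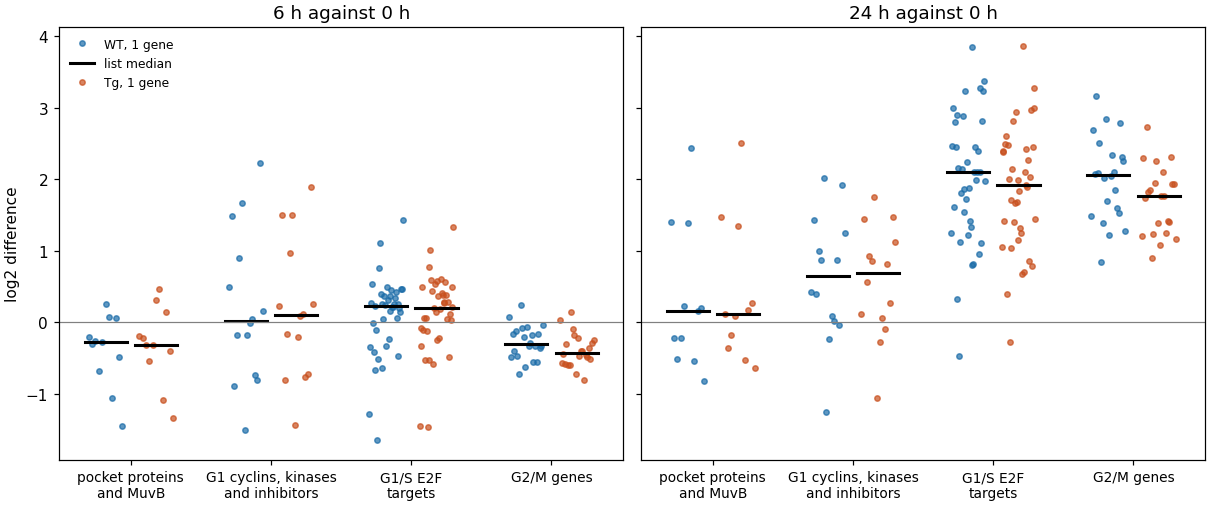
Log2 difference from 0 h (vertical axis) of each measured gene in 4 lists at 6 h and at 24 h, in WT (blue points) and transgenic cells (orange points), with the list median as a black bar. At 24 h the G1/S targets centre on 2.11 and 1.92 and the G2/M genes on 2.06 and 1.77, while at 6 h the G1/S targets centre on 0.22 and 0.19, the G2/M genes on -0.31 and -0.42 the pocket protein and MuvB genes on -0.28 and -0.31 and the G1 regulators on 0.01 and 0.10.

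E2f2, E2f7 and E2f8 were the members that differed most between the 2 arrays of a group at 24 h. At 24 h the unmarked array was above the Rep array by 1.24 in WT and 1.37 in transgenic cells for E2f8, by 1.15 and 1.35 for E2f2, and by 0.53 and 1.12 for E2f7. For E2f1 it was 0.27 and 0.41, and for Tfdp2 0.00 and -0.06. Over all tested probe sets the standard deviation of this difference was 0.34 and 0.26. The G2/M genes went the same way, with a median of 1.48 in WT and 1.94 in transgenic cells and 22 of 22 genes higher in the unmarked array of each genotype. The G1/S targets had medians of 0.23 and 0.66, with 33 and 38 of 39 genes higher.
Myeloid marker lists differed between the arrays mainly in WT cells. Neutrophil markers were higher on the unmarked array by medians of 3.23, 3.01 and 3.58 in WT at 0, 6 and 24 h and by 0.84, 0.55 and 0.36 in transgenic cells. Monocyte markers, 8 of 9 measured, were higher by 1.40, 2.15 and 1.76 in WT and by 0.31, 0.29 and 0.19 in transgenic cells. CD4 T cell markers differed by -0.02 to 0.20. The part of other cells in the WT values of E2f8 at 0 h and 6 h was not tested.

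**Figure D5:**
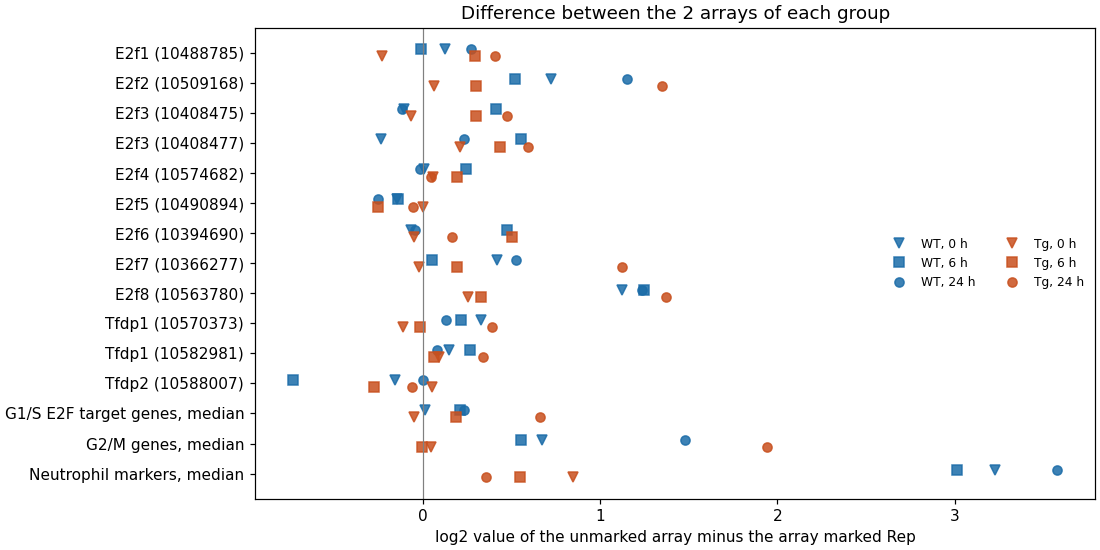
Unmarked minus Rep log2 value (horizontal axis) in each of the 6 groups, for the 12 member probe sets and the medians of 3 gene lists; triangles are 0 h, squares 6 h, circles 24 h, blue WT and orange transgenic. The neutrophil markers in WT lie furthest right, at 3.01 to 3.58; at 24 h the G2/M genes lie at 1.48 and 1.94, E2f8 at 1.24 and 1.37 and E2f2 at 1.15 and 1.35.

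Members with similar time courses tracked each other over the 12 arrays, as a description only, since the arrays share 3 times and the Rep mark. Pearson r was 0.97 between E2f2 and E2f8, 0.96 between E2f7 and E2f8, 0.97 between E2f4 and E2f6, and -0.90 between E2f4 and Tfdp2. E2f1 correlated with E2f7 at 0.95 and with Tfdp2 at 0.11. Among all probe sets with 1 symbol, the 3 most like E2f1 were Mcm3 (r = 0.996), Pole (0.995) and Chaf1a (0.993), and the 3 most like E2f8 were Ccna2 (0.993), Aurkb (0.992) and Kif18b (0.991). E2f2 was most like Ncapd2 (0.995), E2f7 most like Ncaph (0.992), and E2f3 most like Parp1 on 10408475 (0.991) and Pidd1 on 10408477 (0.991). E2f4 was most like Sf3a2 (0.994), E2f5 most like Txnrd3 (0.991) and E2f6 most like Ampd2 (0.995). Tfdp1 was most like Zfpm1 on 10570373 (0.988) and Cdca7l on 10582981 (0.994), and Tfdp2 most like Elovl5 (0.996).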

How the data were processed

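Total RNA of 12 samples was hybridised as biotin-labelled cDNA to 1 one-colour array each. The authors deposited 1 log2 value per probe set and array, from 3.49 to 15.38, for 28853 probe sets; the summary and normalisation before that are not stated in the sources used here. Array medians spanned 0.11, so values were quantile normalised. Symbols came from the platform annotation (21789 probe sets with 1, 1621 with several, 5443 with none), and promoter sequences from RefSeq. Limma 3.58.1 in R 4.3.3 fitted 6 group means on all 12 arrays (6 residual and 3.05 prior degrees of freedom) and tested 13 comparisons over 23410 probe sets with a symbol, with Benjamini-Hochberg adjustment; errors are SEs of that fit. Figures used Python 3.11.15 and matplotlib 3.10.9.

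Deviations of same-marked arrays correlated at 0.138 to 0.591 in all 15 pairs of groups, so the Rep mark was taken to pair samples. The source of the pairing is these data and the titles, and the labels do not say what Rep stands for. The reported fit leaves this pairing in its error, and the fit with the Rep mark as a block takes it out. All members were to be named, and up to 4 genes of each list by smallest p; a gene's brightest probe set stood for it in lists. Members and lists were chosen with earlier results of these data known. The alternatives were other normalisation, filters, probe set choices, moderation, array weights, the Rep mark as a block, only the groups compared, and leaving out arrays. The procedure was tested on simulated data.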

Additional observations from a re-analysis of the deposited data

How the results depend on the processing

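Counts of member probe sets that passed were within 1.5 times of the reported ones under all alternatives for 6 h and 24 h against 0 h, and were 0 under all alternatives for the 7 genotype comparisons. For 24 h against 6 h in WT, 10 became 5 with only the groups compared in the fit and 6 without the 3 WT Rep arrays, and 4 to 10 on leaving out each array in turn. For 24 h against 6 h in transgenic cells, 9 became 2 to 9 on leaving out each array in turn. Where an array was left out, the lone array of its group was assumed to vary like the others. With the Rep mark as a block (replicate block), E2f2 passed in WT at 6 h (adjusted p = 0.0351) and at 24 h in both genotypes, Tfdp2 in transgenic cells at 24 h and Tfdp1 10570373 between 6 and 24 h; it changed no other call of a member. Over all probe sets, 3124 calls for 24 h against 6 h in WT became 758 with only the groups compared in the fit, and the 6 for transgenic against WT averaged over the times became 18 with the block; the cause was not tested. Fitting only the groups compared gave no separate value for the averaged comparison. Member values lay between 6.95 and 12.48, above the lower quartile of 5.81, and 2 arrays per group limit the precision.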
